A study of Mus musculus with 6 samples.

Results

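Jun peaks at 2 genes of chondroitin synthesis, Xylt1 and Chst11, were described from a list of Jun ChIP-seq peaks of mouse rib chondrocytes. The peaks were chosen by position. A peak was taken if its midpoint lay on chromosome 7 from 124480001 to 124850000, a window of 370 kb at Xylt1, or on chromosome 10 from 82400001 to 82700000, a window of 300 kb at Chst11 (mouse build mm9). This gave 276 peaks of the 99162 in the list, 163 at Xylt1 and 113 at Chst11. The windows were drawn around groups of peaks already known to be large, so the number and density of peaks in them are descriptions and were not tested.

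The list comes from 1 Jun ChIP library, prepared with 20000000 chondrocytes from the rib cartilage of untreated wild-type ICR mice at postnatal day 1, next to 1 library of input DNA from cells of the same kind. Jun is a subunit of AP-1, a dimeric transcription factor. The study asked how AP-1 factors and Sox9 act on chondrocytes that become hypertrophic. The labels do not say how many animals gave the cells or whether they were pooled, and the list carries no marker by which the cell type could be checked. Each row of the list is an interval on a chromosome. It has no height, score or read depth, no other ChIP library is described, and the input values were not used here, so no peak has a replicate or a background level beside it. A site missing from the list is therefore not shown to be unbound.

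Chondroitin sulfate is a long sugar chain that chondrocytes attach to core proteins such as aggrecan. Its sulfate groups hold water and give cartilage its resistance to pressure. Xylt1 encodes xylosyltransferase 1, which adds the first sugar, xylose, to a serine of the core protein and so starts the chain. Chst11 encodes a sulfotransferase of the Golgi apparatus that adds sulfate to the galactosamine units of the growing chain. Mice that lack Chst11 function have a severe disorder of the growth plate, and mice with an altered Xylt1 are dwarfed. The names of both windows were taken as given. In the RefSeq annotation of the later build GRCm38.p6, the nearest protein-coding genes are Nucb2 and Rps15a on the sides of Xylt1 and Eid3 and Slc41a2 on the sides of Chst11. Gene positions on mm9 were not used here, so whether a peak lies in a promoter, exon or intron was not determined, and no peak sequence is printed.

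At Xylt1 most peaks formed 1 long group, followed by smaller ones. Peaks were chained into a group as long as each centre lay within 10 kb of the next. The fullest group held 128 of the 163 peaks (78.5%) and ran for 163 kb from 124521889 to 124684859. Its first peak (124521889 to 124522037) measured 149 bp and its last (124684630 to 124684859) 230 bp. The largest distance between neighbouring centres inside the group was 9884 bp, just under the limit. Without peaks under 50 bp the group began at 124555974 and held 103 peaks in 129 kb. To the right of it lay a group of 14 peaks in 48.0 kb (124700139 to 124748176), one of 9 peaks in 33.8 kb (124770506 to 124804259), one of 11 peaks in 13.3 kb (124817419 to 124830742) and a lone peak of 34 bp (124842903 to 124842936). The left part of the window was empty for 41.9 kb up to the fullest group. Between peaks, the longest stretches without another were 22.3 kb from 124748177, 15.3 kb from 124684860 and 13.2 kb from 124804260, all of them between groups.

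At Chst11 nearly all peaks belonged to 1 group, which was longer and looser. It held 105 of the 113 peaks (92.9%) over 228 kb, from 82438439 to 82666162. Its first peak (82438439 to 82438657) was 219 bp wide and its last (82665751 to 82666162) 412 bp. Only 3 peaks lay to its left (82421147 to 82425544) and 5 to its right (82678392 to 82686310), and gaps of 12.9 kb from 82425545 and 12.2 kb from 82666163 set them apart. The window held no peak in its first 21.1 kb and its last 13.7 kb. The longest gap inside the group measured 9.36 kb, from 82631547. The fullest group thus had 7.85 peaks per 10 kb at Xylt1 and 4.61 at Chst11.

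The bounds of the windows cut through no dense stretch. At Xylt1 the nearest peaks outside the window were 1 of 110 bp from 124461180 on the left and 1 of 105 bp from 124883307 on the right. At Chst11 the nearest peak on the left, of 101 bp (82399934 to 82400034), straddled the bound with its midpoint 17.0 bp outside, and the nearest on the right was 1 of 130 bp from 82704995.

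**Figure D1:**
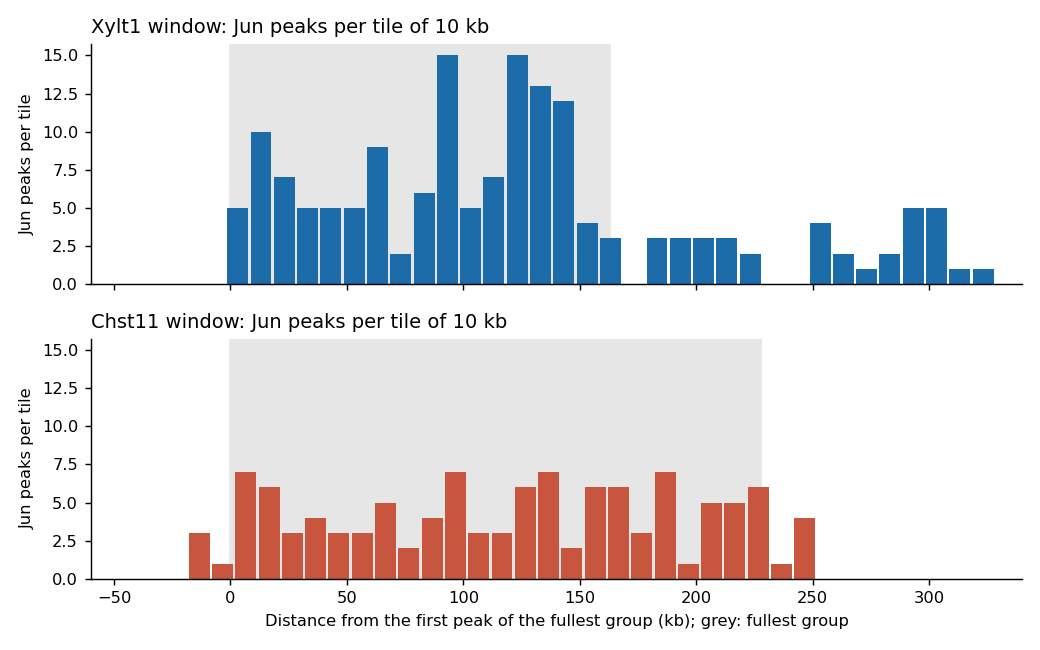
Number of Jun peaks in each tile of 10 kb (bars) along the Xylt1 window (top) and the Chst11 window (bottom), against distance in kb from the first peak of the fullest group, which is shaded grey. The Xylt1 group has high tiles of up to 15 peaks in its right part, while no Chst11 tile holds more than 7.

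Within its group, Xylt1 had a crowded right part, and Chst11 was spread more evenly over these fixed tiles. Of the 37 tiles of 10 kb in the Xylt1 window, 30 held a peak, and of the 30 tiles at Chst11, 27 did. Among all autosomal tiles 22.7% held a peak. Tiles with 5 or more peaks numbered 16 at Xylt1 and 12 at Chst11, against 0.991% of all autosomal tiles. These counts follow from the choice of dense windows, and nothing is read from them. The layout inside the groups is likewise given as a description. At Xylt1 the 17 tiles that touch the fullest group held 2 to 15 peaks, with a variance 2.23 times the mean. At Chst11 the 24 such tiles held 1 to 7 peaks, with a variance of 0.871 times the mean. The chaining limit of 10 kb leaves little room for an empty tile inside a group, which by itself lowers these variances. Over all tiles of the windows the variance was 3.98 times the mean at Xylt1 and 1.35 times at Chst11.

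The fullest Xylt1 tiles, from 124610001 and from 124640001, held 15 peaks each, and 3 further tiles held 10 or more. Joining only peaks with centres within 5 kb divided the Xylt1 group into 4 pieces. The last of these, from 124607635 to 124684859, held 78 peaks in 77.2 kb and thus most of the group. At Chst11, 4 tiles shared the highest count of 7, those from 82440001, 82530001, 82570001 and 82620001. The same 5 kb limit broke the Chst11 group into 12 pieces, and the fullest had 23 peaks in 41.4 kb (82590178 to 82631546). No piece at Chst11 held most of its group, as the one at Xylt1 did. A shorter Chst11 piece was dense, with 12 peaks in 9.66 kb (82444459 to 82454121), and the tile bound at 82450001 divided it. The highest counts depend on the tiles: a 10 kb window free to start anywhere held up to 16 peaks at Xylt1 and 12 at Chst11, an alternative chosen after seeing the data.

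Neighbouring peaks at Xylt1 were mostly under 1 kb apart. The median distance between neighbouring centres was 843 bp in the Xylt1 window (central 50% from 510 to 2036 bp) and 1395 bp in the Chst11 window (774 to 3449 bp). The median over all autosomal neighbours was 5590 bp. Close spacing follows from the choice of dense windows, so nothing is read from the autosomal values of distance here. Distances of at least 300 but under 1000 bp made up 80 of 162 (49.4%) at Xylt1 and 29 of 112 (25.9%) at Chst11, against 19.6% of all autosomal distances.

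Runs of closely spaced peaks were longer at Xylt1 than at Chst11. A run was defined by centres within 1000 bp of the next. How many peaks have a neighbour so close follows from the choice of dense windows, so nothing is read from the autosomal share. At Xylt1 121 of 163 peaks (74.2%) and at Chst11 57 of 113 (50.4%) had such a neighbour, against 39.1% of all autosomal peaks. The Xylt1 peaks fell into 73 runs, of which 42 were single peaks, and 10 runs of 5 or more peaks together held 68 peaks. The Chst11 peaks fell into 78 runs, of which 56 were single peaks, and only 1 had as many as 5.

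The fullest runs at Xylt1 had 11 peaks each. One covered 5574 bp (124611029 to 124616602) with peaks of 57 to 324 bp, and the other 5490 bp (124650767 to 124656256) with peaks of 63 to 358 bp. The median distance between centres inside them was 496 and 459 bp. Peaks made up 28.7% and 38.6% of their length, so that each was a row of separate short intervals. The fullest run at Chst11 held 5 peaks in 2063 bp (82569283 to 82571345), with widths of 27 to 98 bp, all below the Chst11 median.

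Peak width was not used to choose the windows. Xylt1 peaks had a larger median width than Chst11 peaks. The median width was 130 bp at Xylt1 (95% interval 120 to 140, n = 163) and 108 bp at Chst11 (97 to 118, n = 113), and these intervals did not overlap. The median of all 97800 autosomal peaks was 114 bp, below the Xylt1 interval and inside that of Chst11. Over the 25 autosomal groups of 50 or more peaks (described below), median widths ran from 101 to 187 bp, with a middle value of 129.5 bp. The Xylt1 width was thus usual for a large group, and its distance from the autosomal median is not particular to this gene. The central 50% of widths ran from 92.5 to 192.5 bp at Xylt1 and from 79 to 144 bp at Chst11, against 88 to 151 bp on all autosomes. The intervals are order-statistic intervals of the median that treat peaks as independent. Peaks of 1 library share their source, so no test of the difference was made.

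Xylt1 also had the larger share of wide peaks, though the median share over the same 25 groups was 28.8%. Peaks of 200 bp or more numbered 39 of 163 at Xylt1 (23.9%, exact binomial 95% interval 17.6 to 31.2) and 13 of 113 at Chst11 (11.5%, 6.27 to 18.9), against 14.0% of all autosomal peaks. At Xylt1 34 of the 39 (87.2%) lay in the fullest group, which held 78.5% of all Xylt1 peaks. At Chst11 all 13 did, where the group held 92.9% of all peaks. Another centre lay within 1000 bp for 31 of the wide Xylt1 peaks (79.5%) and 7 of the wide Chst11 peaks (53.8%), close to the 74.2% and 50.4% among all peaks of each window. Of wide autosomal peaks 55.7% had such a neighbour. Peaks under 50 bp numbered 9 at Xylt1 (5.52%, 2.56 to 10.2) and 11 at Chst11 (9.73%, 4.96 to 16.7), against 6.30% of autosomal peaks, and both intervals include that share.

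**Figure D2:**
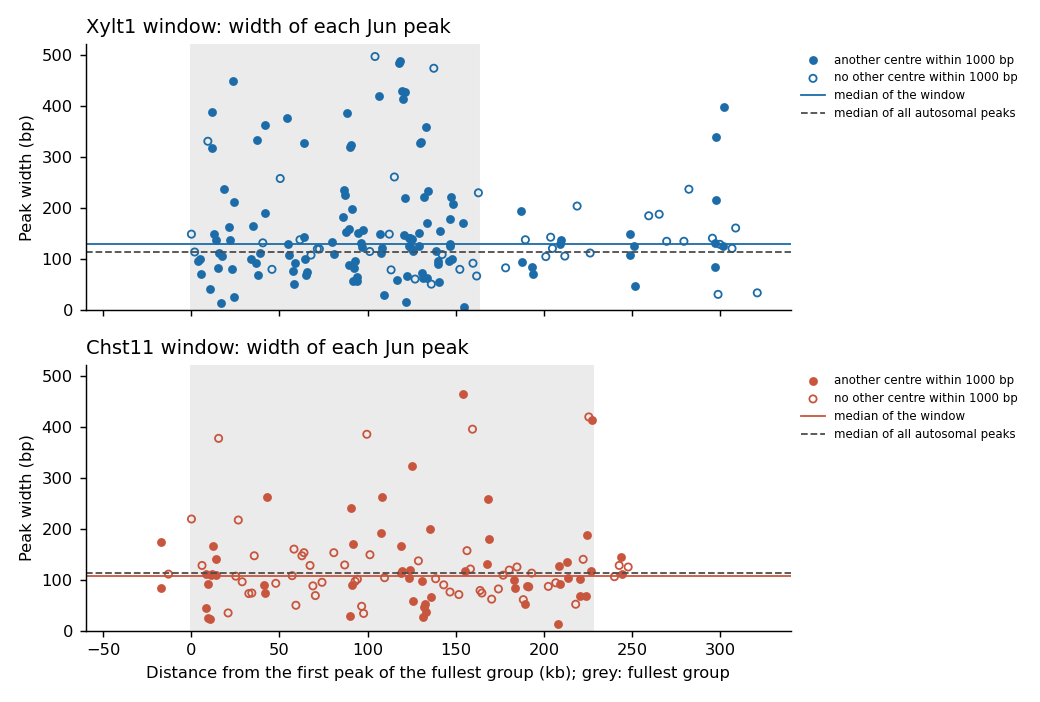
Width in bp of each Jun peak (points) in the Xylt1 window (top) and the Chst11 window (bottom), against distance in kb from the first peak of the fullest group (shaded). Filled points have another centre within 1000 bp, solid lines mark the medians of 130 and 108 bp, and the dashed line marks the autosomal median of 114 bp. Of the 9 Xylt1 peaks of 400 bp or more, 5 lie near 120 kb and the others apart from them.

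The widest peak at Xylt1 measured 497 bp (124625859 to 124626355) and stood alone. The next were 488 bp (124640231 to 124640718) and 485 bp (124639200 to 124639684). The last pair belonged to a stretch that was chosen after its values were seen: of the 9 Xylt1 peaks of 400 bp or more, 5 lay within 4.12 kb, from 124639200 to 124643320, and measured 413 to 488 bp. Peaks of 400 bp or more numbered 9 of 163 at Xylt1 and 3 of 113 at Chst11. Of all 97800 autosomal peaks, 3028 (3.10%) were that wide. The widest at Chst11, of 463 bp, lay in the right part of the group (82592508 to 82592970). The others there, of 419 bp (82663701 to 82664119) and 412 bp (82665751 to 82666162), lay at the right end of the group. The narrowest peaks were 6 bp at Xylt1 (124676810 to 124676815) and 14 bp at Chst11 (82646436 to 82646449), both shorter than any sheared fragment, for which the labels give 100 to 600 bp.

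The peaks together covered 26182 bp of the Xylt1 window (7.08%) and 14235 bp of the Chst11 window (4.74%). Within the fullest groups, coverage was 13.1% at Xylt1 and 5.82% at Chst11. Both the number and the width of the peaks were thus larger in the Xylt1 group, though that group was shorter. When peaks with edges up to 1000 bp apart were joined, the windows held 62 regions at Xylt1 and 65 at Chst11, so the larger number at Xylt1 lay in closely spaced peaks.

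The list is not sorted along the chromosomes, and what orders it is not stated. A place in the list is therefore given only as a position among the 99162 rows, and no strength is read from it. Both genes had peaks from near the top of the list to near its end. Places ran from 406 to 99057 at Xylt1 and from 70 to 97688 at Chst11. The median place was at 64.6% of the list at Xylt1 (95% interval 57.6 to 70.7) and 59.4% at Chst11 (45.3 to 69.1), against 49.9% over all autosomal peaks. The autosomal value lies outside the Xylt1 interval and inside that of Chst11. Both intervals treat places as independent, which they are not, as set out below, and are too narrow.

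At both genes the last 30% of the list held a larger share of peaks than among all autosomal peaks. The last 30% of the list held 70 of the Xylt1 peaks (42.9%, exact binomial 95% interval 35.2 to 50.9) and 45 of the Chst11 peaks (39.8%, 30.7 to 49.5), against 29.9% of all autosomal peaks. In the 2 fullest other groups of the list, on chromosomes 4 and 1 (described below), that share was 38.3% and 34.6%. The intervals again treat places as independent and are too narrow, so the lean was not tested. When the list was cut into 10 equal parts, the eighth was the fullest at both genes, with 32 peaks at Xylt1 and 19 at Chst11. The last 10% of the list, by contrast, held 18 peaks at Xylt1 (exact binomial 95% interval 6.68% to 16.9%) and 13 at Chst11 (6.27% to 18.9%), and both intervals include the 9.90% of autosomal peaks. The first 10% held 14 peaks at Xylt1 (8.59%, 4.78 to 14.0) and 15 at Chst11 (13.3%, 7.62 to 20.9), and both intervals include the autosomal 10.1%.

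**Figure D3:**
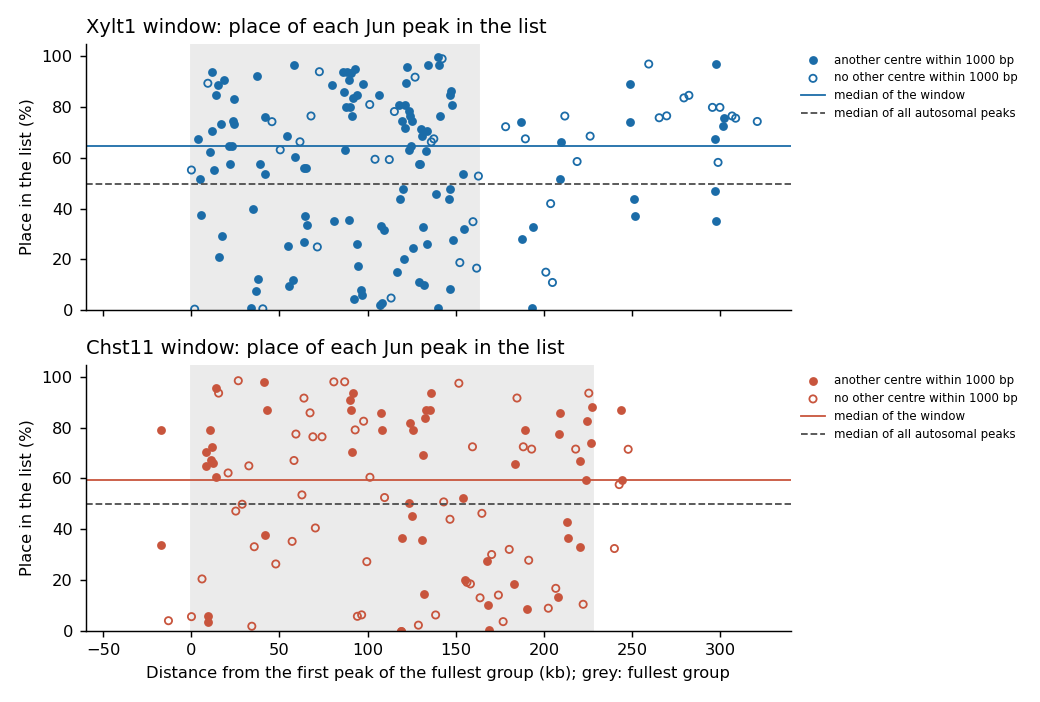
Place of each Jun peak in the list, as a percentage of all rows (points), in the Xylt1 window (top) and the Chst11 window (bottom), against distance in kb from the first peak of the fullest group (shaded). Filled points have another centre within 1000 bp. The window medians (solid) of 64.6% and 59.4% lie above the autosomal median (dashed) of 49.9%, and early and late places mix along both groups.

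Chst11 held the earliest peaks of the set. The first 2000 rows included 5 peaks at Xylt1 and 4 at Chst11, that is 3.07% and 3.54% of them (exact binomial 95% intervals 1.00 to 7.01 and 0.973 to 8.82), against 2.04% of all autosomal peaks. At Chst11 the earliest was at place 70 (82557181 to 82557294, 114 bp), and the second, at place 90 (82557119 to 82557285, 167 bp), overlapped it by 105 bp. This spot near the middle of the group was thus listed 2 times within the first 100 rows. The third, at place 349 (82607059 to 82607238, 180 bp), overlapped a peak of 259 bp at place 9974 by 30 bp. At Xylt1 the earliest peaks were at place 406 (124523745 to 124523858, 114 bp), close to the left end of the group, at place 533 (124562399 to 124562530, 132 bp) and at place 855 (124714846 to 124714929, 84 bp), outside the fullest group. The latest peaks were at place 99057 for Xylt1 (124662054 to 124662143, 90 bp) and at place 97688 for Chst11 (82464994 to 82465210, 217 bp).

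Overlaps were few at both genes, and their places in the list are given only as a description. Each window had 3 overlapping pairs, or 6 peaks, which is 3.68% of the Xylt1 and 5.31% of the Chst11 peaks, against 2.89% of all autosomal peaks. At Xylt1 the pairs joined peaks of 211 to 449 bp, and 5 of the 6 places were beyond 70% of the list. At Chst11 the pairs joined peaks of 26 to 259 bp, and all 6 places lay within the first 10.1% of the list. Among all autosomal peaks that overlap another, 16.5% lay in the first 10% of the list. With 3 pairs a gene, no difference between the genes can be shown.

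Few peaks with early places were wide. None of the 14 Xylt1 peaks in the first 10% of the list reached 200 bp, and 1 of the 15 at Chst11 did. On all autosomes 4.60% of peaks of that part did, against 14.0% of all peaks. The median widths of these early peaks were 111.5 bp at Xylt1, 102 bp at Chst11 and 106 bp on all autosomes. The medians of all peaks were 130, 108 and 114 bp. For the peaks of 200 bp or more the median place was 74.5% of the list at Xylt1 and 79.1% at Chst11, against 65.8% for wide autosomal peaks. Place and width correlated across peaks with a Spearman's rho of 0.27 at Xylt1 (163 peaks) and 0.10 at Chst11 (113 peaks), against 0.13 over all autosomal peaks. These peaks come from 1 library and often lie side by side, so the coefficients are descriptions.

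**Figure D4:**
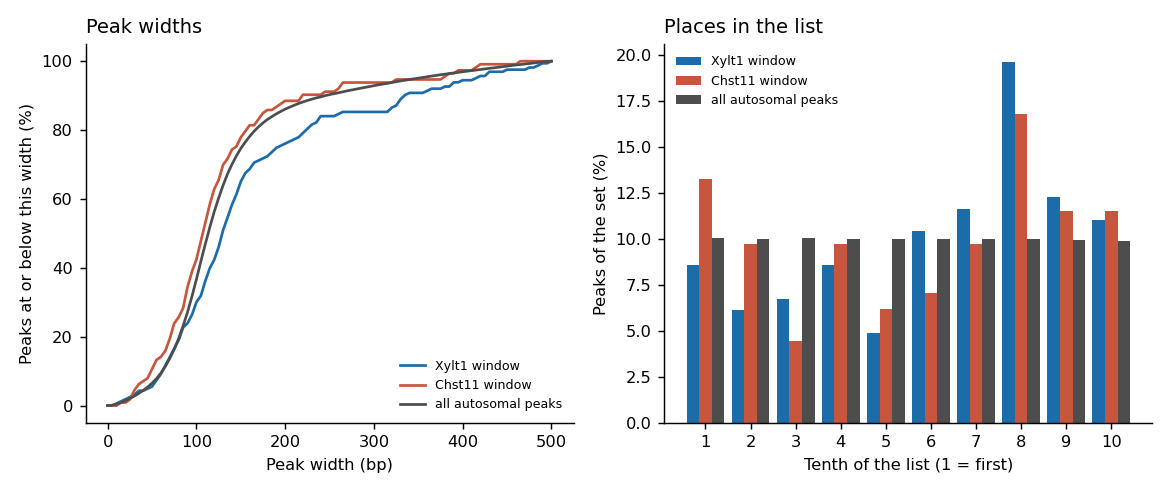
Left, percentage of peaks at or below each width in bp. Right, percentage of peaks in each of 10 equal parts of the list, from first to last. The Xylt1 window is blue, the Chst11 window red and all autosomal peaks grey. The Xylt1 curve runs below the autosomal one from 80 bp until both end near 100%, and the eighth part of the list is the fullest at both genes, with 19.6% and 16.8% of their peaks.

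Peaks in runs and lone peaks were of like width. At Xylt1 the median was 130 bp for the 121 peaks in runs and 125 bp for the 42 lone ones. At Chst11 it was 109 bp for the 57 in runs and 106.5 bp for the 56 lone ones. Their median places differed in direction between the genes. The median was 62.5% of the list in runs and 68.0% for lone peaks at Xylt1, but 66.9% and 48.5% at Chst11. Over all autosomal peaks it was 51.8% in runs and 48.8% for lone peaks. Places at 1 gene are not independent, as set out below, so no difference between the genes is read from these medians. Most neighbours in the genome were far apart in the list. The median step in place from a peak to the next was 24.1% of the list at Xylt1 and 26.2% at Chst11, against 27.5% over all autosomal neighbours.

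The list nevertheless kept some peaks of a locus close together, which was noticed after its values were seen. When the peaks of a window were sorted by place, the next was within 20 rows for 32 of 162 steps at Xylt1 (19.8%) and 24 of 112 at Chst11 (21.4%). In the fullest other groups, on chromosomes 4 and 1, the same share was 23.6% and 11.9%. The median step was 336 rows at Xylt1 and 537 rows at Chst11. The largest such block was 5 peaks at Xylt1, at places 83914 to 83942, and 6 at Chst11, at places 78471 to 78511. These were not adjacent sites, since the blocks spanned 269 and 207 kb of the genome. A different measure was taken over the list as a whole. There 1.95% of consecutive rows lay within 300 kb of each other, against 0.307% of rows 10 apart and 0.0938% of rows 50 apart. Places of peaks at 1 gene are therefore not independent, and the intervals of places above are too narrow.

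Among the 25 autosomal groups of 50 or more peaks, the Xylt1 group was the third fullest and the Chst11 group the fourth. The Chst11 group was the longest of the 25, at 228 kb against a median of 114 kb, and ranked 21st in peaks per 10 kb. That length depends on how peaks are chained, and was 171 kb once peaks with edges up to 1000 bp apart were joined. The Chst11 group had 12.4% of peaks of 200 bp or more, the lowest share of the 25, whose median was 28.8%. Its median width of 104 bp ranked 24th. The Xylt1 group lay in the middle of the 25 by width, with 26.6% wide peaks (15th) and a median of 129.5 bp (13th), and was sixth in density. The median places of both, at 62.9% and 60.5% of the list, were close to the median of these groups, 62.8%. These ranks describe groups that were chosen for their size and were not tested.

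**Figure D5:**
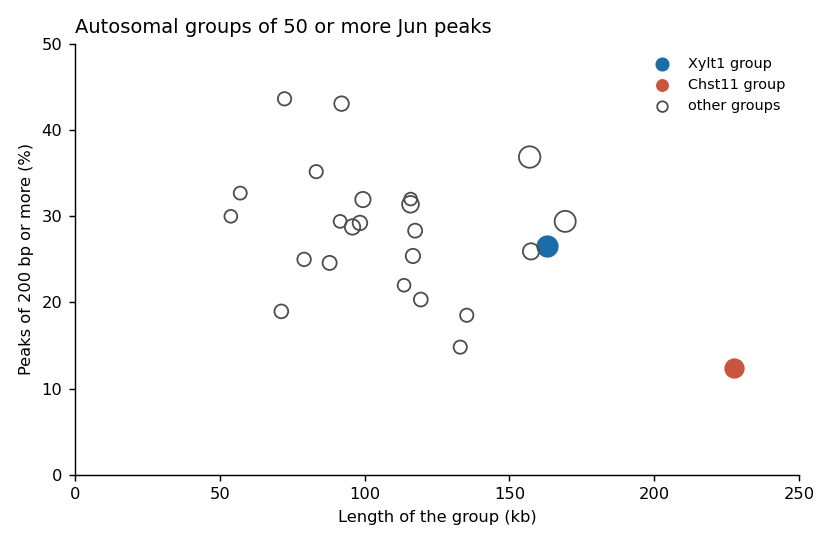
Share of peaks of 200 bp or more (%) against length in kb for the 25 autosomal groups of 50 or more Jun peaks, with point area proportional to the number of peaks. The Chst11 group is the longest, at 228 kb, and has the lowest share, 12.4%, while the Xylt1 group, at 163 kb and 26.6%, lies among the others.

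Of the 25 groups, the fullest 2 were set beside Xylt1 and Chst11. They lay on chromosome 4 (62842462 to 62999473, 141 peaks) and chromosome 1 (92598601 to 92767891, 136 peaks). The Xylt1 group was like them in layout, with a median distance between neighbours of 763 bp, against 815 bp on chromosome 4 and 782 bp on chromosome 1. The Chst11 group had a median of 1392 bp. Peaks with another centre within 1000 bp were 82.0% of the Xylt1 group and 50.5% of the Chst11 group, against 77.3% and 83.8% on chromosomes 4 and 1. Wide peaks made up 26.6% at Xylt1 (exact binomial 95% interval 19.1 to 35.1) and 12.4% at Chst11 (6.76 to 20.2), against 36.9% (28.9 to 45.4) on chromosome 4 and 29.4% (21.9 to 37.8) on chromosome 1. The Chst11 interval lies below both of these, while the Xylt1 interval overlaps them. Both of those groups were denser than Chst11, with 8.98 and 8.03 peaks per 10 kb against 4.61. Groups looser than Chst11 were mixed in wide share. It was 14.8% on chromosome 17 (from 12930969) and also inside the Chst11 interval on chromosome 6 (from 37268033). It was above that interval on chromosome 9 (from 56672865, 22%) and chromosome 4 (from 137018439, 32%). A loose layout with few wide peaks was thus not unique to Chst11. Binomial intervals cover counting error only.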

How the data were processed

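The deposited list gives the start and end of each peak, without a header. Its values carry no other unit, and they refer to mm9 per the submitters' processing notes. Which aligner and peak caller were used, and how the input entered, is not given in the sources used here. An FDR mark in the name of the list is not explained. The list names no sample and was taken as that of the 1 library made with a Jun antibody. Starts were converted to count from 1. Per the labels' protocols, cells were fixed in 1% formaldehyde for 10 minutes, 9 μg of antibody was used, and libraries had 18 PCR cycles.

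Peaks were chained by their centres in Python 3.11.15 with numpy 2.4.6 and pandas 2.3.3. Exact binomial (Clopper-Pearson) and order-statistic intervals, at 95%, came from scipy 1.17.1. Plots were drawn with matplotlib 3.10.9. The chaining was tested on simulated data. Windows, lists and measures were chosen with earlier results of these data known. The peaks named were the first and last of each fullest group, the 3 widest, the 3 earliest and the latest in the list, the narrowest, and the fullest tiles and runs. Peaks at 25 other genes of chondroitin synthesis and motifs in peaks need mm9 genes or sequence and were not analysed here, nor were the 4 RNA-seq libraries.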

Additional observations from a re-analysis of the deposited data

How the results depend on the processing

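The number of peaks was 62 at Xylt1 and 65 at Chst11 once peaks with edges up to 1000 bp apart were joined, against 163 and 113 single peaks. The fullest group then held 31 joined regions over 129 kb at Xylt1 and 46 over 171 kb at Chst11. The median width was then 473 bp at Xylt1 and 129 bp at Chst11. With centres within 5 kb the fullest group held 78 peaks at Xylt1 and 23 at Chst11, and with 2 kb 20 and 11, since a shorter limit breaks a chain by construction. The median gap from the end of a peak to the next start at Xylt1 was 708 bp, below the interval of the median distance between centres. A window of 10 kb at any start, chosen after seeing the data, held 12 peaks at Chst11 where the fixed tiles held at most 7, and 16 at Xylt1. The other 22 of 34 alternatives left counts within 1.5 times and medians within their intervals. No paired analysis was possible because there is 1 Jun library and the list has no replicates, and for the same reason no replicate could be left out. Read depth is unknown, which limits every statement about missing peaks.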
